A study of Mus musculus with 12 samples.

Results

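Osteoclasts, the cells that resorb bone, form only when precursors receive a pair of secreted or membrane-bound signals, and 6 genes that encode those signals and their receptors were examined here: Tnfsf11, Tnfrsf11b, Tnfrsf11a, Csf1, Il34 and Csf1r. They are the genes of the deposited count table, which lists 23358, that carry these names. All 6 were among the 16190 genes that passed the filter on low counts. The tissue was mouse frontal bone of postnatal day 3, dissected with 2 sutures (coronal and frontonasal) and the nasal bone attached, and RNA of the tissue, digested with collagenase and trypsin and lysed with no sorting of cells named in the labels, was sequenced from an mRNA library. The 12 samples formed 4 groups of 3. In the wild type groups the mice carried no mutant allele and had the C57BL/6 or the BALB/c strain background. In the mutant groups the mice of each background carried the C342Y protein change on 1 of the copies of Fgfr2, an allele that models Crouzon syndrome, a human condition with early fusion of skull sutures. The labels name no Cre driver, transgene, drug or other treatment, and every cell of a mutant mouse carries the allele as far as the labels say. They do not say whether each sample is a single animal or a pool, so p-values measure the spread between these samples. The sample descriptions name 2 flow cells, each used for a single strain, so strain and flow cell cannot be told apart.

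Tnfsf11 encodes RANKL, the ligand that osteoblast-lineage cells and some lymphocytes present to osteoclast precursors. Tnfrsf11a encodes its receptor RANK, and Tnfrsf11b encodes osteoprotegerin (OPG), a soluble decoy receptor that binds RANKL and keeps it from RANK. Csf1 and Il34 encode separate cytokines that both bind CSF1R, the receptor tyrosine kinase of the monocyte and macrophage lineage, which precursors need in order to survive and divide. In the growing skull, osteoclasts remodel the inner bone surface and the bone beside the sutures.

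Total gene counts ran from 27181658 to 46521546 per sample. The members are well sampled at this depth, from 78 to 158 counts per sample for Il34 and from 428 to 14320 for the other 5. Levels are given as CPM, which scale the counts to a common library size after the TMM correction for composition. Fgfr2 itself ranged from 212 to 283 CPM in C57BL/6 wild type, 337 to 375 in C57BL/6 mutant, 269 to 290 in BALB/c wild type and 271 to 318 in BALB/c mutant samples. The allele changes the protein, so the gene's level does not check the genotype labels. Some libraries differed in tissue or sex. All 3 C57BL/6 wild type samples held 5164 to 6018 counts of 4 Y-linked genes, against 1 sample of 3 with 4846 or more in each other group. Summed CPM of 8 surface and airway epithelium markers were 233 to 512 in C57BL/6 wild type, 3.40 to 108 in C57BL/6 mutant and at most 6.12 in BALB/c samples. The 4 measured ciliated cell markers summed to 12.9 to 26.5 in C57BL/6 wild type samples, above the 3.49 to 8.40 of all other samples. All 10 osteoblast markers were detected in each sample, from at least 58981 CPM for the collagen gene Col1a1 to at least 19.7 for Bglap2. All 12 osteoclast markers were detected too, the least abundant being Calcr at 0.937 to 4.42 CPM, and a few genes carry most of each summed level given here.

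To compare levels between genes, CPM were divided by the coding length that the authors list. Csf1r stood highest at 66.5 ± 15.03 CPM per kilobase (SD, n = 12), followed by Csf1 at 31.3 ± 6.03 (SD, n = 12). Tnfsf11 averaged 9.42 ± 2.44 and Tnfrsf11b 7.34 ± 1.43 (SD, n = 12), then came Tnfrsf11a at 5.17 ± 1.16 and Il34 at 1.85 ± 0.507 (SD, n = 12). Csf1r, Csf1, Tnfrsf11a and Il34 kept ranks 1, 2, 5 and 6 in every sample, while Tnfsf11 and Tnfrsf11b exchanged ranks 3 and 4 between samples. Among all genes that passed the filter, mean CPM per kilobase put Csf1r at the 95.6th percentile, Csf1 at the 89.5th and Il34 at the 30.3rd. The receptor of the CSF1 branch was thus measured at a higher level than its 2 ligands, and the RANK branch at a lower level than either Csf1r or Csf1.

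**Figure D1:**
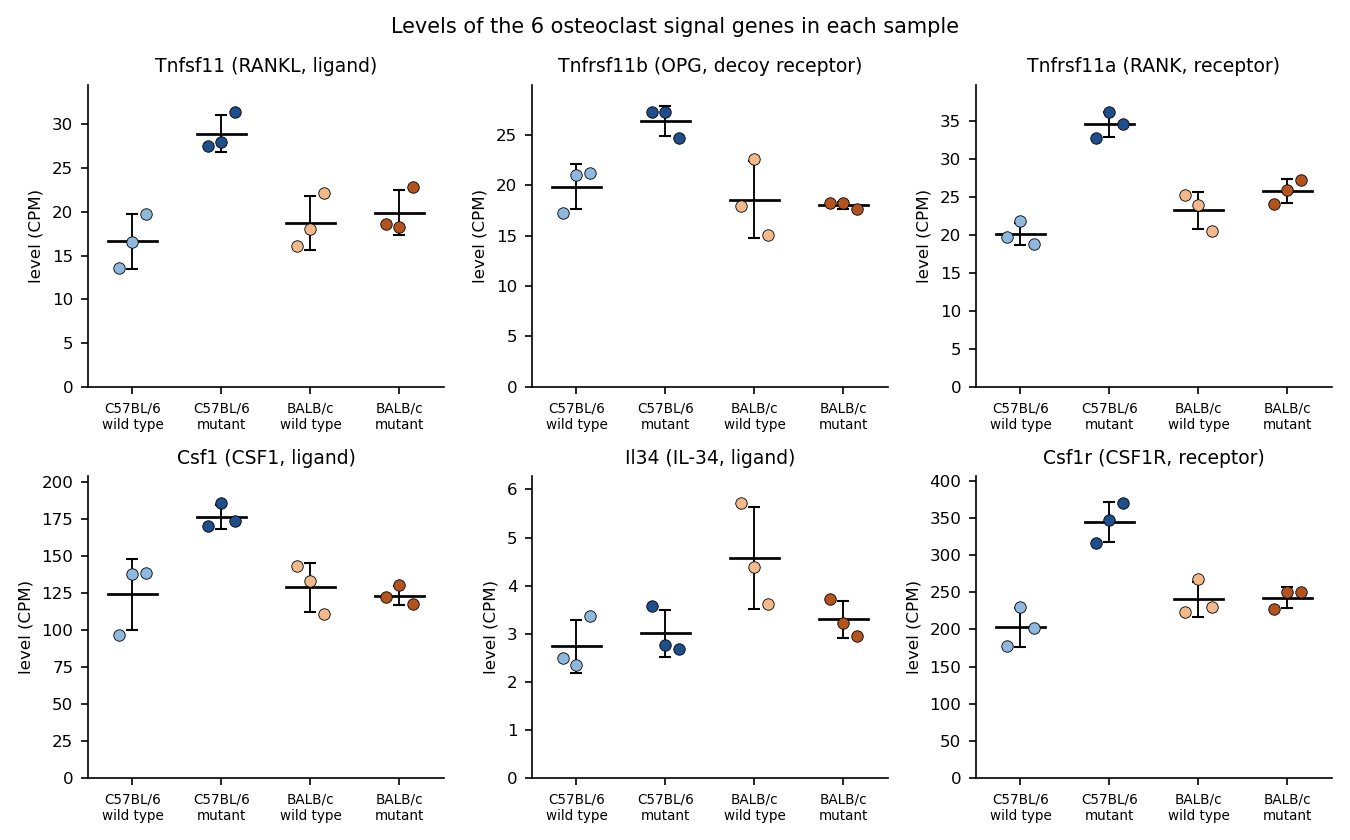
Level of each gene in CPM (linear axis from 0) in the 12 samples, with 3 points per group, a line at the group mean and bars of 1 SD. The C57BL/6 mutant samples lie above the C57BL/6 wild type samples for every gene but Il34, and the BALB/c groups overlap for all 6.

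The first question was what the mutation did on the C57BL/6 background. Of the 6 genes, 5 rose in C57BL/6 mutants: the ligands Tnfsf11 and Csf1, the decoy Tnfrsf11b, and the receptors Tnfrsf11a and Csf1r. Il34 did not pass the test. For all 5 the lowest mutant sample lay above the highest wild type sample. Calls are at an adjusted p under 0.05 from edgeR's quasi-likelihood test with Benjamini-Hochberg adjustment over 16190 genes. In this comparison 11.3% of all genes tested were called higher and 12.6% lower, and 19.7% had mutant samples all above the wild type samples. The median log2 fold change of the 6 genes was 0.63, against a median of -0.0040 over all genes tested.

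Tnfsf11 (RANKL), whose gene spans 78277446 to 78308043 on chromosome 14 in mm10 coordinates, the build used for all positions given, measured 13.6, 16.5 and 19.8 CPM in C57BL/6 wild type samples 1 to 3 and 27.5, 27.9 and 31.4 CPM in mutant samples 4 to 6. The mutant samples were close together and the groups were well apart. The fold change was 1.74, a log2 change of 0.80 with SE 0.147 and a 95% interval from 0.48 to 1.12 (edgeR adjusted p = 0.00371).

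Tnfrsf11a (RANK; chromosome 1, 105780723 to 105847981), the receptor on precursors that receives this ligand, measured 19.7, 21.8 and 18.9 CPM in wild type and 32.8, 36.2 and 34.7 CPM in mutant C57BL/6 samples. Both groups were tight. The log2 change was 0.78 with SE 0.0853, a 1.72-fold rise (edgeR adjusted p = 0.000258). Ligand and receptor thus differed between genotypes by like amounts.

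Tnfrsf11b (OPG; chromosome 15, 54250619 to 54278484) measured 17.2, 21.0 and 21.2 CPM in wild type and 27.2, 27.2 and 24.6 CPM in mutant C57BL/6 samples. The gap between the groups was narrow, with the lowest mutant sample at 24.6 and the highest wild type sample at 21.2. The log2 change was 0.41 with SE 0.125, a 1.33-fold rise (edgeR adjusted p = 0.0343). This call was the least stable of the 5, since it was lost without wild type sample 1 (adjusted p = 0.106) and without mutant samples 4, 5 or 6 (adjusted p = 0.0575, 0.0960 and 0.0646). The authors' deposited table gives Tnfrsf11b a log2 change of 0.36 with a q-value of 0.0986 and gives the other 4 called genes q-values of at most 0.000464.

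Csf1 (chromosome 3, 107741048 to 107760469), the main ligand of CSF1R in bone, measured 96.9, 138 and 139 CPM in wild type and 171, 186 and 174 CPM in mutant C57BL/6 samples. Wild type sample 1 was low, and the other wild type samples were still below every mutant sample. The log2 change was 0.51 with SE 0.128, a 1.42-fold rise (edgeR adjusted p = 0.0162). Without mutant sample 5 the log2 change was 0.47 and the adjusted p was 0.0547. When the C57BL/6 samples were fitted alone, Csf1 (adjusted p = 0.0741) and Tnfrsf11b (adjusted p = 0.0595) missed the threshold.

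Csf1r (chromosome 18, 61105572 to 61131139) measured 177, 230 and 202 CPM in wild type and 316, 347 and 369 CPM in mutant C57BL/6 samples. No mutant sample came near the wild type range. The log2 change was 0.76 with SE 0.102, a 1.70-fold rise (edgeR adjusted p = 0.000742). The calls of Tnfsf11, Tnfrsf11a and Csf1r held in each of 6 fits that left out 1 library.

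Il34 (chromosome 8, 110741829 to 110805903), the other CSF1R ligand, known mostly from skin and brain, measured 2.49, 2.35 and 3.38 CPM in wild type and 3.57, 2.76 and 2.69 CPM in mutant C57BL/6 samples. The groups overlapped. The log2 difference was 0.14 with a 95% interval from -0.34 to 0.61 (edgeR adjusted p = 0.688), so changes of the size seen for Csf1 lie within the interval. RefSeq places Gm15894, Gm39250 and Gm15895 over the Il34 gene, and whether their reads entered its count was not tested.

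Markers of other cells also separated these 2 groups. Besides the epithelial and ciliated cell markers, summed CPM were 5187 to 7499 in C57BL/6 wild type against 285 to 2802 in mutant samples for chondrocyte, 106 to 203 against 19.9 to 75.7 for neuron and 211 to 278 against 56.8 to 86.8 for erythroid markers. In addition, Y-linked genes set 2 of the 3 mutant samples apart from the wild type samples. The C57BL/6 mutant sample that carried Y-linked counts, sample 6, lay above all 3 wild type samples for the 5 called genes. The lack of overlap between the groups already requires this, so the position of this 1 library is no test of sex. With the Y-linked level as a covariate Tnfsf11, Tnfrsf11a and Csf1r were still called, while Tnfrsf11b (adjusted p = 0.124) and Csf1 (adjusted p = 0.0567) were not. With the ciliated cell level as a covariate none of the 6 genes was called, with adjusted p from 0.237 for Tnfrsf11a to 0.921 for Csf1. The log2 changes in that fit were 0.55 for Tnfsf11 (SE 0.262), 0.59 for Tnfrsf11a (SE 0.156), 0.41 for Csf1r (SE 0.155), 0.35 for Tnfrsf11b (SE 0.235) and 0.20 for Csf1 (SE 0.214). Il34 moved the other way and was at 0.54 in that fit, against 0.14 without the covariate. In that fit 2 genes of the whole table were called, and genotype alone fixed 75.3% of the covariate's variance in C57BL/6. Genotype and these tissue markers cannot be told apart in this strain. With total counts in place of TMM factors the median of all genes moved by -0.20 on the log2 scale, the share of calls that were higher went from 47.5% to 13.2%, and 4 of the 5 genes were still called higher, Tnfrsf11b being the exception (log2 change 0.22, adjusted p = 0.172).

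Promoter sequences are shown for 3 of the genes that rose together in C57BL/6 mutants, the 3 with an entry used here, as the bases before the start of the RefSeq gene in GRCm38.p6, written 5′ to 3′ on the gene's strand. The windows hold 250 bases for Tnfsf11 and Csf1 and 200 for Tnfrsf11a, whose RefSeq gene starts at 105780673, upstream of the start in the count table. They lie at chr14:78308044-78308293 on the minus strand for Tnfsf11, at chr1:105780473-105780672 on the plus strand for Tnfrsf11a and at chr3:107760470-107760719 on the minus strand for Csf1. Capitals mark matches to TATAA, the core of the TATA box, or to GGGCGG, the GC box bound by SP factors, on either strand; the capitals in Tnfsf11 join a match on each strand that overlap.

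Tnfsf11: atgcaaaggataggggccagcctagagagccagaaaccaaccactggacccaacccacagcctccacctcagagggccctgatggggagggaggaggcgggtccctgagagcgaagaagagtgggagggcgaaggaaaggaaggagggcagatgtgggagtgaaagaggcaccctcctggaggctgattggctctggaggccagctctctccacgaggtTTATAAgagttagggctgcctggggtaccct

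Tnfrsf11a: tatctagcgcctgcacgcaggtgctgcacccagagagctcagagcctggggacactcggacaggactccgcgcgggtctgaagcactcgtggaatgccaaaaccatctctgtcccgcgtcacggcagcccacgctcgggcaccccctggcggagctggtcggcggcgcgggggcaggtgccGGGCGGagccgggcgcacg

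Csf1: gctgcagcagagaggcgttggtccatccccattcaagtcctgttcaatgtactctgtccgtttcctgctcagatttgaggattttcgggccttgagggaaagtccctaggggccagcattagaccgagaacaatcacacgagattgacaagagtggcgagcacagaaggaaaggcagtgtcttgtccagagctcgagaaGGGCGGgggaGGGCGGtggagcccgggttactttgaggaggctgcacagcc

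Tnfsf11 held the TATA core 30 bases before the start, which 23.5% of 27025 promoters of this length hold somewhere, and no GC box. Csf1 held 2 GC boxes, at 51 and 41 bases before the start, while 32.9% of promoters hold at least 1. Tnfrsf11a held 1, at 19 bases before the start, beside 24.5% of promoter windows of 200 bases. The GC content was 60.4% for Tnfsf11 and 56.4% for Csf1, against a median of 52%, and 71% for Tnfrsf11a, against 51.5% over windows of its length. Searches on both strands for TGTGGT (the RUNX core, in 14.2% of promoters), TGANTCA (AP-1, 6.87%), TGACGTCA (the cyclic AMP response element, 1.62%) and CCGGAA (an ETS core, 12.2%) found no match in the 3 windows. A match is a description of the letters and no evidence of binding.

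In BALB/c mice the same mutation gave no called change in any of the 6 genes. The groups overlapped for each gene, and 0.136% of all genes tested were called in either direction, so few calls were made in this comparison on any gene. Of all genes, 1901 had an unadjusted p under 0.05 against the 22 called by edgeR, and DESeq2 called 323 genes and none of the 6. The median log2 fold change of the 6 was -0.01.

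Tnfsf11 measured 16.1, 18.1 and 22.1 CPM in BALB/c wild type samples 13 to 15 and 18.6, 18.2 and 22.9 CPM in mutant samples 16 to 18, a log2 difference of 0.08 with a 95% interval from -0.24 to 0.40. Tnfrsf11a measured 25.2, 24.0 and 20.6 CPM against 24.1, 26.0 and 27.3 CPM in mutants, a log2 difference of 0.15 with an interval from -0.04 to 0.34. The upper bounds of these intervals are below the estimates in C57BL/6. Csf1r, at 223, 268 and 230 CPM in wild type and 227, 251 and 251 CPM in mutant samples, had a log2 difference of 0.01 with an interval from -0.21 to 0.24.

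Tnfrsf11b was spread over 17.95, 22.6 and 15.05 CPM in BALB/c wild type samples but measured 18.2, 18.2 and 17.6 CPM in mutants, which lie inside the wild type range. Csf1 measured 143, 133 and 111 CPM in wild type and 122, 130 and 118 CPM in mutant samples, with a log2 difference of -0.06 and an interval from -0.34 to 0.21. Il34 had the largest estimate of the 6 in BALB/c and did not pass the test. Its wild type samples measured 5.71, 4.38 and 3.63 CPM and its mutant samples 3.72, 3.23 and 2.95 CPM, a log2 difference of -0.47 with an interval from -0.95 to 0.01 (edgeR unadjusted p = 0.0527, adjusted p = 0.434). Leaving out 1 library gave -0.61 to -0.27.

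**Figure D2:**
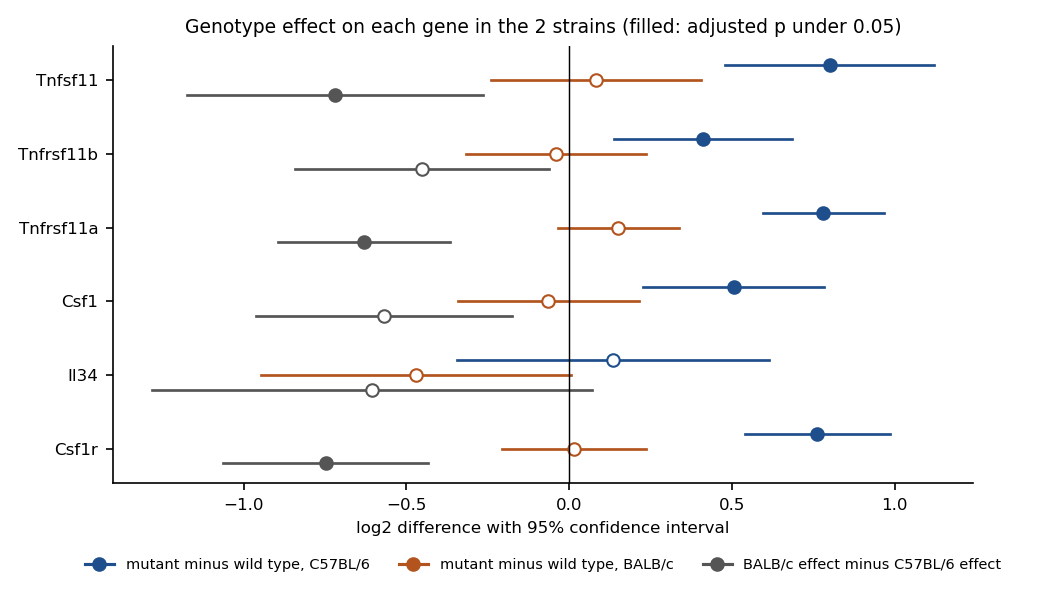
Log2 difference (x axis) with its 95% confidence interval for each gene (y axis): mutant minus wild type in C57BL/6, the same in BALB/c, and the BALB/c effect minus the C57BL/6 effect. Filled points have an adjusted p under 0.05, as 5 genes do in C57BL/6, none in BALB/c and 3 for the difference between strains.

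Whether the genotype effect differed between the backgrounds was tested directly by the interaction term. The effect was smaller in BALB/c for Tnfsf11, Tnfrsf11a and Csf1r, the RANK ligand and both receptors. Over all genes tested, 4.58% were called lower and 5.46% higher for this term. Csf1r differed by -0.75 on the log2 scale with SE 0.144 (edgeR adjusted p = 0.0112) and Tnfrsf11a by -0.63 with SE 0.121 (edgeR adjusted p = 0.0110), and both held without any 1 of the 12 libraries. Tnfsf11 differed by -0.72 with SE 0.208 and was near the threshold (edgeR adjusted p = 0.0491). It missed the threshold in 9 of the 12 fits that left out 1 library, those without C57BL/6 samples 1, 2, 5 or 6 and those without BALB/c samples 13, 14, 15, 16 or 17, in which the adjusted p ran from 0.0531 to 0.116. For Csf1 the difference was -0.57 (adjusted p = 0.0649), passing the threshold without C57BL/6 sample 3 or 4 (adjusted p = 0.0478 and 0.0479), for Tnfrsf11b -0.45 (adjusted p = 0.118) and for Il34 -0.61 (adjusted p = 0.214). Leaving out 1 library gave -0.58 to -0.27 for Tnfrsf11b and -0.78 to -0.41 for Il34. With the ciliated cell covariate the Il34 difference was -1.07. All 6 estimates were negative, and all 6 use the same 12 libraries. With total counts the call of Tnfrsf11a was lost too (adjusted p = 0.0595), the share of all calls that were higher went from 54.4% to 90.5%, and with the ciliated cell covariate no member was called.

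Averaged over the strains, Tnfsf11 rose by 0.44, Tnfrsf11a by 0.47 and Csf1r by 0.39 on the log2 scale in mutants (edgeR adjusted p = 0.0270, 0.00225 and 0.00937). By comparison 4.71% of all genes were called higher and 3.28% lower, and the share of calls that were higher was 59.0%, or 33.1% with total counts. The average of Tnfsf11 was no longer called without C57BL/6 sample 6 (adjusted p = 0.0687), BALB/c sample 13 (adjusted p = 0.0681) or BALB/c sample 18 (adjusted p = 0.0744). With the ciliated cell covariate the averages of Tnfsf11, Tnfrsf11a and Csf1r were 0.33, 0.39 and 0.24 and none was called (adjusted p = 0.409, 0.0790 and 0.276). Tnfrsf11b, at 0.19, was called only without BALB/c sample 14 (adjusted p = 0.0452). Csf1 and Il34 had averages of 0.22 and -0.17 and were not called.

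The backgrounds were also compared within each genotype. In wild type mice Il34 was the member called, higher in BALB/c by 0.74 on the log2 scale with SE 0.220, a 1.67-fold difference (edgeR adjusted p = 0.0159). All 3 BALB/c wild type samples, at 3.63 to 5.71 CPM, lay above the C57BL/6 wild type samples, at 2.35 to 3.38. Of all genes, 22.8% were called higher and 25.6% lower in BALB/c, so 1 call among 6 genes does not exceed the background. With total counts the share of calls that were higher in BALB/c went from 47.1% to 31.2%. Il34 was not called without C57BL/6 samples 1 or 2 or BALB/c sample 13 (adjusted p = 0.0503, 0.0582 and 0.0799), nor with the Y-linked or the ciliated cell covariate (adjusted p = 0.0742 and 0.0958). With the ciliated cell covariate the log2 difference of Il34 was larger, at 1.17. Tnfrsf11a and Csf1r were 0.21 and 0.24 higher in BALB/c (adjusted p = 0.0657 and 0.0656). Both passed the threshold without C57BL/6 sample 2 (adjusted p = 0.0374 and 0.0195), and Tnfrsf11a also passed it without BALB/c sample 15 (adjusted p = 0.0160).

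Among mutants 5 genes were lower in BALB/c than in C57BL/6, all but Il34. The differences were -0.54 for Tnfsf11, -0.55 for Tnfrsf11b, -0.42 for Tnfrsf11a, -0.52 for Csf1 and -0.50 for Csf1r on the log2 scale (edgeR adjusted p from 0.00221 to 0.0125). For each of these genes the BALB/c mutant samples all lay below the C57BL/6 mutant samples. Of all genes tested, 18.9% were called lower and 18% higher in BALB/c mutants, and 24.8% had BALB/c samples all below the C57BL/6 samples. With total counts the share of calls that were higher went from 48.8% to 67.8%. Tnfsf11 lost its call without BALB/c sample 16 or 17 (adjusted p = 0.0505 and 0.0543). Il34 differed by 0.13 (adjusted p = 0.673). Markers of other cells also separated the mutant groups. All 8 B cell, 8 neutrophil and 8 erythroid and 6 of 8 skeletal muscle markers were called higher in BALB/c, and 10 of 12 osteoclast markers lower. Erythroid markers summed to 462 to 560 CPM against 56.8 to 86.8 in C57BL/6, and muscle markers to 6.10 to 423 against 15.1 to 21.6. The differences in the members share the C57BL/6 mutant libraries with the genotype effect in C57BL/6 and are no second measurement of it. In both genotypes, strain cannot be told apart from flow cell.

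Ratios of CPM per kilobase within a sample show whether paired genes moved by unlike amounts. The first ratio was that of the RANK ligand to its decoy, Tnfsf11 to Tnfrsf11b. It was 0.991, 0.990 and 1.17 in C57BL/6 wild type samples and 1.27, 1.29 and 1.61 in C57BL/6 mutant samples, a mean difference of 0.40 on the log2 scale with no overlap. The ratios are given as descriptions and were not tested. In BALB/c the ratio was 1.13, 1.01 and 1.85 in wild type and 1.29, 1.26 and 1.64 in mutant samples, which overlap. Wild type sample 15 stood high there, with the lowest Tnfrsf11b and the highest Tnfsf11 of its group.

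The ratio of the CSF1R ligands, Csf1 to Il34, was 16.1, 24.4 and 17.1 in C57BL/6 wild type and 19.9, 27.9 and 26.8 in C57BL/6 mutant samples, which overlap. In BALB/c it was 10.4, 12.7 and 12.7 in wild type and 13.7, 16.8 and 16.6 in mutant samples, without overlap and with a mean log2 difference of 0.39. The BALB/c samples minus the C57BL/6 samples gave a mean log2 difference of -0.66 in wild type and -0.65 in mutant mice, with no overlap in either genotype. The lowest ratio was the 10.4 of BALB/c wild type sample 13, so Csf1 exceeded Il34 per kilobase in every sample. The receptors kept a similar ratio: that of Tnfrsf11a to Csf1r averaged 0.0771 ± 0.00773 and 0.0777 ± 0.00451 in C57BL/6 wild type and mutant samples and 0.0750 ± 0.0105 and 0.0819 ± 0.00213 in the BALB/c groups (SD, n = 3 each). Its ranges overlapped in all 4 comparisons.

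**Figure D3:**
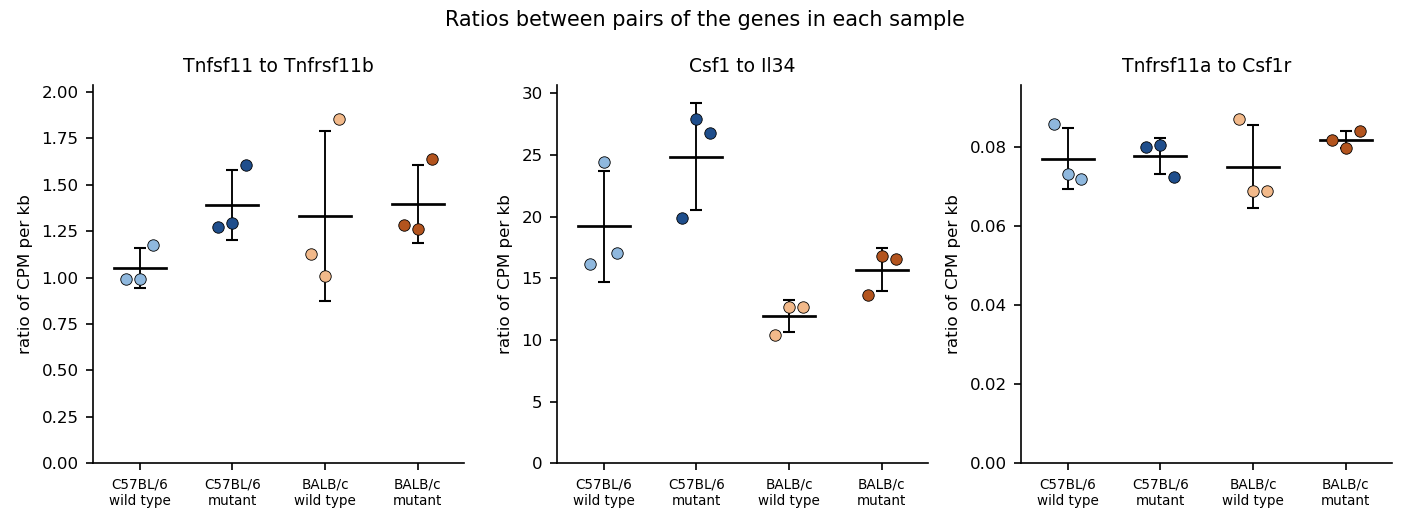
Ratio of CPM per kilobase (linear axis from 0) for 3 pairs of genes in the 12 samples, with group means and bars of 1 SD. The ligand to decoy ratio is higher in all C57BL/6 mutant than C57BL/6 wild type samples, the Csf1 to Il34 ratio is lower in BALB/c, and the receptor ratio overlaps between all groups.

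The signals were set beside markers of the cells that send and receive them. Of 12 osteoclast markers, all 12 rose in C57BL/6 mutants, beside 11.3% of all genes called higher. Their median log2 fold change was 0.92, and their summed levels were 8020 to 8951 CPM against 3876 to 4697 in wild type. Dcstamp, needed for precursor fusion, rose by 1.18 (edgeR adjusted p = 1.07e-05), the proton pump subunit Tcirg1 by 0.79 (adjusted p = 0.000139) and the protease gene Mmp9 by 0.96 (adjusted p = 0.000207). In BALB/c none of the 12 was called, beside 0.136% of all genes, and the median was 0.05. For the difference between strains 10 were called lower, beside 4.58% of all genes, led by Dcstamp at -1.14 (edgeR adjusted p = 0.000109). In fits that left out 1 library, 11 or 12 rose in C57BL/6. With the ciliated cell covariate 1 rose. In whole tissue, more cells of a type and more RNA per cell cannot be told apart.

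Both receptors were set against the mean of each list. Relative to the mean log2 level of the osteoclast markers in the same sample, the mutant minus wild type log2 difference in C57BL/6 was -0.16 for Csf1r, without overlap, and -0.14 for Tnfrsf11a, with overlap. In BALB/c it was -0.14 for Csf1r, also without overlap, and -0.01 for Tnfrsf11a, with overlap. Relative to 12 macrophage and monocyte markers, it was 0.58 for Csf1r and 0.60 for Tnfrsf11a, both without overlap, and in BALB/c -0.04 and 0.09, both with overlap. Of those 12, 3 rose and 1 fell in C57BL/6 mutants, beside 11.3% of all genes higher and 12.6% lower, with a median log2 change of 0.17 that became -0.04 with total counts. The lysosomal Cd68 rose by 0.93 (edgeR adjusted p = 0.000243), the clearance receptor Mertk by 0.48 (adjusted p = 0.000928) and the scavenger receptor Cd163 by 0.87 (adjusted p = 0.00839), while lysozyme Lyz2 fell by 0.30 (adjusted p = 0.0377). None of the 12 was called in BALB/c.

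On the sending side, 8 of 10 osteoblast markers rose in C57BL/6 mutants, with a median of 0.56, and 3 of 5 osteocyte markers, with a median of 0.55. The share of all genes called higher was 11.3%. The other 2 osteocyte markers had negative estimates that did not pass the test, -1.12 for Fgf23 (edgeR adjusted p = 0.0778) and -0.24 for Sost (adjusted p = 0.397). The transcription factors Runx2 and Sp7 rose by 0.65 and 0.62 (edgeR adjusted p = 0.00160 and 0.00448), and the osteocyte matrix gene Dmp1 by 0.62 (adjusted p = 0.00697). Relative to the osteoblast markers of the same sample, Tnfsf11 was higher in C57BL/6 mutants by 0.23 on the log2 scale without overlap. Csf1 and Tnfrsf11b differed from them by -0.05 and -0.16, both with overlap. No osteoblast or osteocyte marker was called in BALB/c. Between 5 and 9 osteoblast markers rose when 1 library was left out, and 2 rose when the C57BL/6 samples were fitted alone. With the ciliated cell covariate none of the macrophage, osteoblast or osteocyte markers was called.

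**Figure D4:**
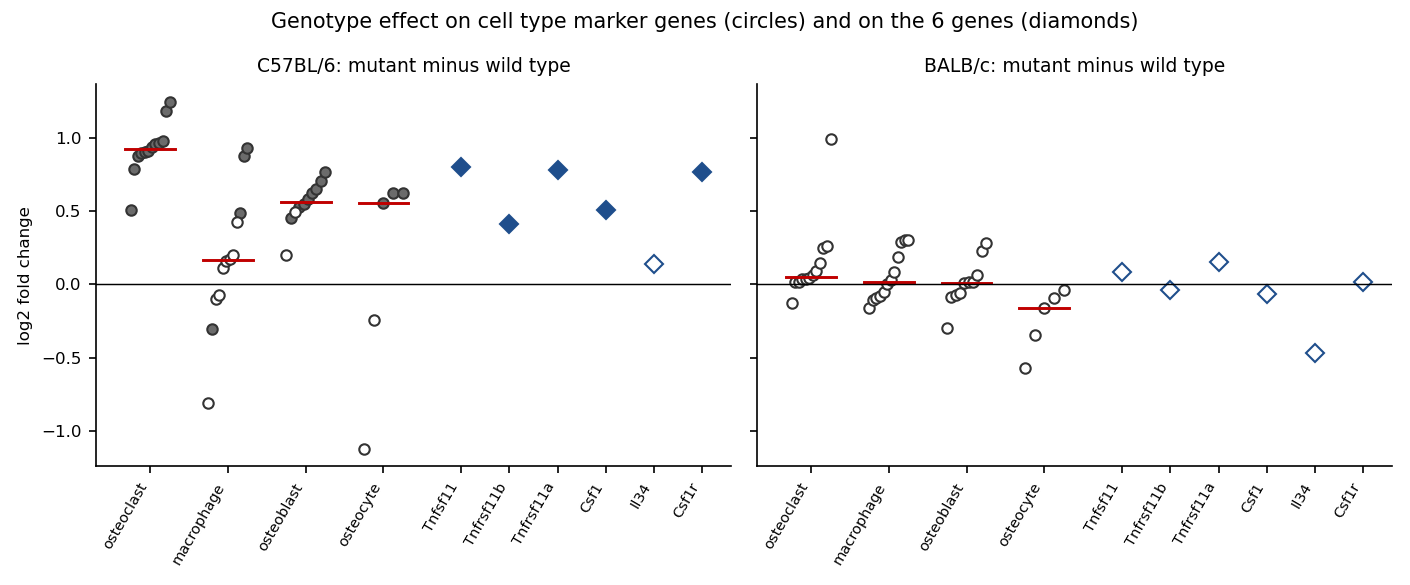
Log2 fold change (y axis) of mutant over wild type in each strain for markers of 4 cell types (circles, with a line at the median of each list) and for the 6 genes (diamonds). Filled symbols have an adjusted p under 0.05. In C57BL/6 the receptors and Tnfsf11 lie below most osteoclast markers and above the osteoblast median, and in BALB/c no symbol is filled.

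Other genes of the same pathways were counted from lists. Inside the cell, RANK acts through TRAF adaptors, NF-kappaB and AP-1 to the transcription factor NFATc1. Of 22 such genes 5 rose and none fell in C57BL/6 mutants, beside 11.3% of all genes higher, with a median log2 change of 0.15 that became -0.05 with total counts. The kinase gene Src rose by 0.33 (edgeR adjusted p = 0.00153), Nfatc1 by 0.43 (adjusted p = 0.00736) and the adaptor Traf6 by 0.37 (adjusted p = 0.0146). Leaving out 1 library gave 2 to 7 genes. For the difference between strains 1 of the 22, Src, was called, at -0.32 (edgeR adjusted p = 0.0219). This is close to the 4.58% of all genes called lower for that term.

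Osteoclast precursors also need a costimulatory signal from immunoreceptors that pair with the adaptors DAP12 and FcR gamma. Of 11 genes of this route 8 rose in C57BL/6 mutants, beside 11.3% of all genes called higher. Tyrobp, which encodes DAP12, rose by 0.64 (edgeR adjusted p = 0.000142), the receptor Oscar, which is also on the osteoclast list, by 0.93 (adjusted p = 0.000354) and the kinase gene Syk by 0.40 (adjusted p = 0.00395). With total counts 2 rose and 2 fell, and leaving out 1 library gave 4 to 8. The BALB/c effect minus the C57BL/6 effect was -0.63 for Tyrobp and -0.79 for Oscar (adjusted p = 0.00233 and 0.0124).

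Downstream of CSF1R, 6 of 12 genes rose in C57BL/6 mutants, among them the kinase subunit Pik3r1 at 0.46 (edgeR adjusted p = 0.000877), the lipid phosphatase Inpp5d at 0.34 (adjusted p = 0.00260) and the kinase Fyn at 0.49 (adjusted p = 0.00333). The share of all genes called higher was 11.3%. With total counts 2 of the 12 rose, and without 1 library 3 to 6. Between wild types 2 of the 12 genes were higher and 3 lower in BALB/c, beside 22.8% and 25.6% of all genes. Among those lower was Cbl, a ubiquitin ligase that targets CSF1R. It measured 13.03 ± 1.52 CPM in C57BL/6 wild type and 1.79 ± 0.184 in BALB/c wild type samples (SD, n = 3 each), a log2 difference of -2.86 (edgeR adjusted p = 2.24e-05). Among mutants the log2 difference of Cbl was -1.72 (edgeR adjusted p = 0.000427). Strain and flow cell cannot be told apart in these differences.

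Of 20 hormone and cytokine genes that act on Tnfsf11 in osteoblast-lineage cells, 8 rose and 2 fell in C57BL/6 mutants. The 8 that rose stand beside 11.3% of all genes called higher, and the 2 that fell are not more than the 12.6% called lower. The vitamin D receptor Vdr rose by 1.03, from 266 ± 17.2 to 545 ± 42.3 CPM (SD, n = 3 each; edgeR adjusted p = 5.11e-05), the LIF receptor Lifr by 1.02 (adjusted p = 0.000101) and the parathyroid hormone receptor Pth1r by 0.49 (adjusted p = 0.00185). The interleukin-11 receptor Il11ra1 fell by 0.50 (adjusted p = 0.00231) and the cytokine Il1b fell by 1.02 (adjusted p = 0.00552). None of the 20 was called in BALB/c. The BALB/c effect minus the C57BL/6 effect was -1.11 for Vdr, -1.02 for Lifr and -0.55 for Pth1r (adjusted p = 0.000306, 0.00155 and 0.0132). With total counts 6 rose and 5 fell in C57BL/6.

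Of the genes tested for other binding partners and for the proteases that shed RANKL or CSF1, 4 of 7 rose in C57BL/6 mutants, among them the sheddase Adam10 at 0.39 (edgeR adjusted p = 0.00331), the heparan sulfate proteoglycan Sdc1 at 0.29 (adjusted p = 0.0143) and the IL-34 binding phosphatase Ptprz1 at 0.58 (adjusted p = 0.0273). The share of all genes called higher was 11.3%. With total counts 2 of the 7 rose, and without 1 library 2 to 4. Mmp7 was at 0 counts in all samples. Of 9 genes that restrain osteoclast formation, 1 rose and 1 fell in C57BL/6 mutants, close to the 11.3% and 12.6% of all genes. Sfrp1, a Wnt and RANKL antagonist, fell by 2.03 on the log2 scale (edgeR adjusted p = 0.00347). Sfrp1 measured 58.7 ± 24.1 CPM in C57BL/6 wild type and 14.3 ± 8.83, 15.1 ± 1.97 and 14.9 ± 2.29 in C57BL/6 mutant, BALB/c wild type and BALB/c mutant samples (SD, n = 3 each), so that the C57BL/6 wild type group, which also held the epithelial markers, stood apart. With total counts 0 of the 9 rose and 1 fell. None of these genes was called in BALB/c. With the ciliated cell covariate no gene of the 6 pathway lists was called in C57BL/6.

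For each member the 3 genes with the most similar log2 CPM over the 12 samples were listed from 12899 named genes. These correlations describe 12 samples that share 4 group means. Csf1r went most closely with the proton pump subunits Atp6v0d2 (r = 0.978) and Atp6v1b2 (r = 0.976) and with Farp2 (r = 0.976). Tnfrsf11a went with Cp and Serpine2 (r = 0.969 and 0.957), and Csf1 with Ctsh, Zc3h7a and the osteocyte gene Phex (r = 0.969, 0.966 and 0.960). Tnfsf11 went with Bcar1, Capg and Camk2a (r = 0.955, 0.951 and 0.948), and Tnfrsf11b with Syt6, Klhl20 and Maml3 (r = 0.963, 0.933 and 0.923). Il34 reached only 0.882 with Cables1, 0.880 with Ptms and 0.879 with Mcat. Among the members, Csf1r and Tnfrsf11a were the most alike (r = 0.925), Csf1 with Tnfrsf11b and Csf1r with Tnfsf11 followed at 0.876 each, and Il34 had r between -0.18 and 0.02 with the other 5. Once the strain means were taken away, at most 1 of the 3 genes listed for each member was again among its closest 3, while the correlations of the named genes then ran from 0.802 (Mcat with Il34) to 0.987 (Atp6v0d2 with Csf1r). Those with Il34 and Tnfrsf11b were lower than before, from 0.802 to 0.853 and from 0.885 to 0.942.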

How the data were processed

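RNA of 12 samples was sequenced from an mRNA library. Per the submitters' processing notes, bcl2fastq, TopHat2 2.0.6, HTSeq and DESeq2 were used with build mm10. The deposited table gives counts per gene. All counts are even (0 odd), so each read pair may add 2. The strand setting is not given in the sources used here, and no other gene in the table overlaps a member, but RefSeq GRCm38.p6 lists genes that overlap Csf1 (Gm40121), Il34 (Gm15894, Gm39250, Gm15895) and Csf1r (Mir6983, Gm52352). The authors also deposited RPKM, used only to check library size: gene counts were 75.6% to 80.7% of the library implied in C57BL/6 and 86.4% to 88.0% in BALB/c. The authors' deposited table of comparisons (log2 fold change, p-value, q-value per gene) was used beside them.

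Genes with enough counts for edgeR's filterByExpr (minimum 10, total 15) were kept, TMM factors computed, and 1 mean per group fitted over 12 samples with edgeR 4.0.16 (R 4.3.3) by the quasi-likelihood test, for 6 contrasts, with Benjamini-Hochberg adjustment over 16190 genes and calls under 0.05. Standard errors were derived from the F statistic. Log2 CPM used a prior count of 2. Alternatives used DESeq2 1.42.0, limma-voom 3.58.1, RLE factors, total counts, other filters, only the groups compared, Y-linked and ciliated cell covariates, counts divided by 2 (chosen after seeing the data) and each library left out. Scripts were tested on simulated data.

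The members, the 17 marker lists and the 6 pathway lists were chosen with earlier results of these data known. From each list, up to 3 called genes of smallest p in each direction were named per comparison, and for each member the 3 genes of highest correlation. Some genes that these rules select are not reported here.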

Additional observations from a re-analysis of the deposited data

Results flagged for a closer look

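The effect of the mutation differed between the strain backgrounds for 3 of the 6 genes by the interaction term of edgeR's quasi-likelihood fit, beside 4.58% of all genes called lower and 5.46% higher. The BALB/c effect minus the C57BL/6 effect was -0.72 on the log2 scale for Tnfsf11, -0.63 for Tnfrsf11a and -0.75 for Csf1r. Tnfsf11 (adjusted p = 0.0491) missed the threshold in 9 of 12 fits that left out 1 library, with total counts only Csf1r was called, and with the ciliated cell covariate none of the 3 was (adjusted p = 0.840 for Tnfsf11, 0.682 for Tnfrsf11a and 0.765 for Csf1r). In C57BL/6 all 3 mutant samples lay above all 3 wild type samples for each of these genes, as for 19.7% of all genes, and in BALB/c the groups overlapped. Strain and flow cell cannot be told apart, and the ciliated and epithelial markers that stood high in the C57BL/6 wild type samples enter the same difference.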

How the results depend on the processing

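No paired analysis was possible because the replicate numbers in the labels run on across the groups and none is shared. The counts of genes called and of the 6 member genes called moved as follows. In C57BL/6, 3867 genes and 5 members were called, against 1458 and 3 with only the groups compared, 3 members with the Y-linked covariate, and 2 genes and 0 members with the ciliated cell covariate. In BALB/c the 22 genes became 323 with DESeq2, 44 with limma-voom, 4 with total counts, 71 with only the groups compared, 4 with the Y-linked and 34 with the ciliated cell covariate. Between wild types, 7847 genes became 1707 with the ciliated cell covariate, and the 1 member became 2 with DESeq2 and 0 with either covariate. For the interaction, 1626 genes became 2707 with DESeq2 and 24 with the ciliated cell covariate, and 3 members became 1 with total counts and 0 with the ciliated cell covariate. For the averaged effect, 1294 genes became 2203 with DESeq2, 835 with the Y-linked and 40 with the ciliated cell covariate, which left 0 of 3 members.

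Leaving out 1 library gave 1724 to 4833 genes and 3 to 5 members in C57BL/6, lowest without mutant samples 6 and 5, 0 to 95 genes and 0 members in BALB/c, 6567 to 7319 genes and 0 to 2 members between wild types, 4500 to 5374 genes and 4 to 5 members between mutants, 624 to 3129 genes and 2 to 4 members for the interaction, and 493 to 2621 genes and 2 to 4 members for the averaged effect. The Tnfsf11 interaction also missed the threshold with RLE factors (adjusted p = 0.0518), no filter (0.0545) and the Y-linked covariate (0.0512), and that of Csf1 passed it with DESeq2 (0.0149). The strain difference of Il34 in wild type missed it with the Y-linked (0.0742) and ciliated cell covariates (0.0958).

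Signs turned only for log2 differences that were not called. Il34 in C57BL/6 became -0.048 with total counts and ran from -0.0087 (without mutant sample 4) to 0.31 when 1 library was left out. Csf1 between wild types became -0.048 with total counts and -0.038 and -0.27 with the Y-linked and ciliated cell covariates, and ran from -0.095 (without C57BL/6 sample 1; also below 0 without BALB/c sample 13) to 0.16. With the ciliated cell covariate Tnfsf11 and Csf1r between wild types became -0.084 and -0.12 and the averaged Il34 effect 0.0036. Without 1 library, the BALB/c effect ran from -0.031 to 0.22 for Tnfsf11 (below 0 without samples 13 or 18), -0.16 to 0.023 for Csf1 (above 0 without sample 13), -0.028 to 0.11 for Csf1r (below 0 without samples 13, 15, 17 or 18) and -0.17 to 0.14 for Tnfrsf11b (above 0 without sample 14). Tnfrsf11b between wild types ran from -0.27 to 0.039 (above 0 without BALB/c sample 15). The cause was not tested. Il34, with 78 to 158 counts per sample, is the member that depth limits most.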

Other observations

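Some lymphocytes can also express Tnfsf11. In C57BL/6 mutants 4 of 8 B cell and 4 of 8 neutrophil markers fell, with summed levels of 9.70 to 12.4 against 14.3 to 26.9 CPM for B cell and 116 to 253 against 225 to 395 CPM for neutrophil markers. Of all genes 12.6% were called lower in this comparison, and leaving out 1 library gave 2 to 4 B cell and 1 to 7 neutrophil markers. Igll1, part of the pre-B cell receptor, fell by 1.39 (edgeR adjusted p = 0.00428) and the granule enzyme gene Mpo fell by 1.88 (adjusted p = 0.00601). Of 4 T cell markers tested 1 fell, Cd3e (0 to 1 without 1 library), while the summed levels of all 6 T cell markers in the table overlapped. Erythroid markers fell most often, 7 of 8 (also 7 in each fit without 1 library), from 211 to 278 down to 56.8 to 86.8 CPM, and in BALB/c mutants 2 of these, Ermap and Rhd, rose by 0.78 and 0.86 (adjusted p = 0.0398 for both), beside 0.136% of all genes called. Without BALB/c sample 13 or 15, 0 genes were called in that comparison, so both calls were lost.

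Of the remaining lists in C57BL/6 mutants, 5 of 8 chondrocyte, 4 of 8 epithelium, 3 of 4 ciliated cell, 2 of 6 neuron and 1 of 8 muscle markers fell. Of all genes 11.3% were called higher and 12.6% lower in this comparison, and a single call in a list of 7 or 8 markers is close to these shares. Leaving out 1 library gave 3 to 8 chondrocyte, 0 to 8 epithelium, 2 to 4 ciliated cell, 0 to 4 neuron and 0 to 1 muscle markers lower. Suture mesenchyme had 1 of 8 markers higher and 3 lower (0 to 2 and 2 to 3 without 1 library), olfactory neurons 1 of 7 in each direction (1 higher and 0 to 6 lower), endothelium 2 of 6 higher (0 to 4), and marrow stroma and adipocytes 0 of 6 called by edgeR. In BALB/c no marker of these lists was called.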
